A study of Nannochloropsis oceanica with 15 samples.

Results

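The marine microalga Nannochloropsis oceanica belongs to the stramenopile lineage and is known for the oil it accumulates. In the wild-type strain IMET1, 196 of 9756 gene models were well expressed in white light and many times lower after a change to red or to blue light. They were chosen by their levels, as the median of log2(FPKM + 1) over the 3 libraries of a group. FPKM is the number of fragments scaled by the length of the gene model and the size of the library. A gene belonged to them with at least 30 FPKM in white light and a level at least 3 lower on the log2 scale, which is 8-fold on FPKM + 1, in red 12 h, blue 12 h and blue 24 h. Another 23 genes that met these limits lie in 2 regions of 44 models, on scaffold00295 and scaffold00026, that were left out.

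Algae read light colour with several kinds of receptor. Stramenopiles carry aureochromes, which are blue-light receptors that also bind DNA, and cryptochromes absorb blue light as well. Nannochloropsis has chlorophyll a as its only chlorophyll, with violaxanthin as a main light-harvesting carotenoid, so red light is absorbed by chlorophyll while blue light is absorbed by both. The deposited identifiers of the 196 genes come without gene names, and 0 of 160 reference genes matched them. The genes below are therefore identified by position or identifier, with no statement on their products.

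The algae were kept at 25 °C and 0.04% CO2 in bubbled column bioreactors, in medium with 427.5 mg/L sodium nitrate and with continuous light at 80 ± 5 µmol of photons a second on each square metre. Of the 5 groups, white 0 h was taken at the change of light, and the other 4 came after 12 h or 24 h of red or of blue light, with 3 libraries in each group. All 15 libraries were wild type. With no later white library analysed here, light colour and time since the change cannot be told apart in a difference from white 0 h. RNA came from aliquots of culture, so fewer cells that express a gene and less RNA of it per cell cannot be told apart. The labels number the libraries as replicates without saying whether they came from separate columns, so the p-values rest on a spread between libraries that may be only technical.

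Between 3130000 and 6440000 fragments per library were assigned to gene models, as recovered from the steps of the FPKM values. Red 24 h library 1 stood apart from the rest. Its mean correlation with its own group over all tested genes was 0.918, against 0.946 to 0.993 for the other 14 libraries. Its median FPKM over all models was 17.8, against 20.3 to 25.0, while its FPKM sum was the highest, at 815138 against 430453 to 644393. The counts and tests of red 24 h are therefore given with and without library 1. Libraries 2 and 3 of red 24 h had mean correlations with their group of 0.956 and 0.946. Both means include the correlation with library 1, so they do not show how well libraries 2 and 3 matched each other. The libraries of the other groups had means of 0.991 to 0.993. The main tests share 1 spread per gene over all 15 libraries. That spread may be too narrow for red 24 h, and the p-values of its tests too small.

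In white light the 196 genes were above the average gene. Their median level was 64.2, 78.2 and 77.8 FPKM in white libraries 1, 2 and 3, where the median of all models was 20.3, 24.7 and 25.0 FPKM. Together they made up 8.42% to 8.51% of the FPKM sum of each white library. These levels, like those of both blue groups and of red 12 h, were used to choose the genes and are given as a description.

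At 12 h of red light the median of the 196 genes was 4.31, 4.27 and 4.26 FPKM in the 3 libraries. In blue light it was 4.93, 4.90 and 5.08 FPKM at 12 h and 4.27, 4.29 and 4.17 FPKM at 24 h. The replicates of each of these groups lay close together, and their share of the FPKM sum was 0.399% to 0.434% in the 9 libraries. The median gene kept 5.04% of its white level after 12 h of red light, 6.08% after 12 h of blue and 5.34% after 24 h of blue. The lowest kept 0.581%, in red 12 h, and the highest 11.4%, in blue 12 h.

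**Figure D1:**
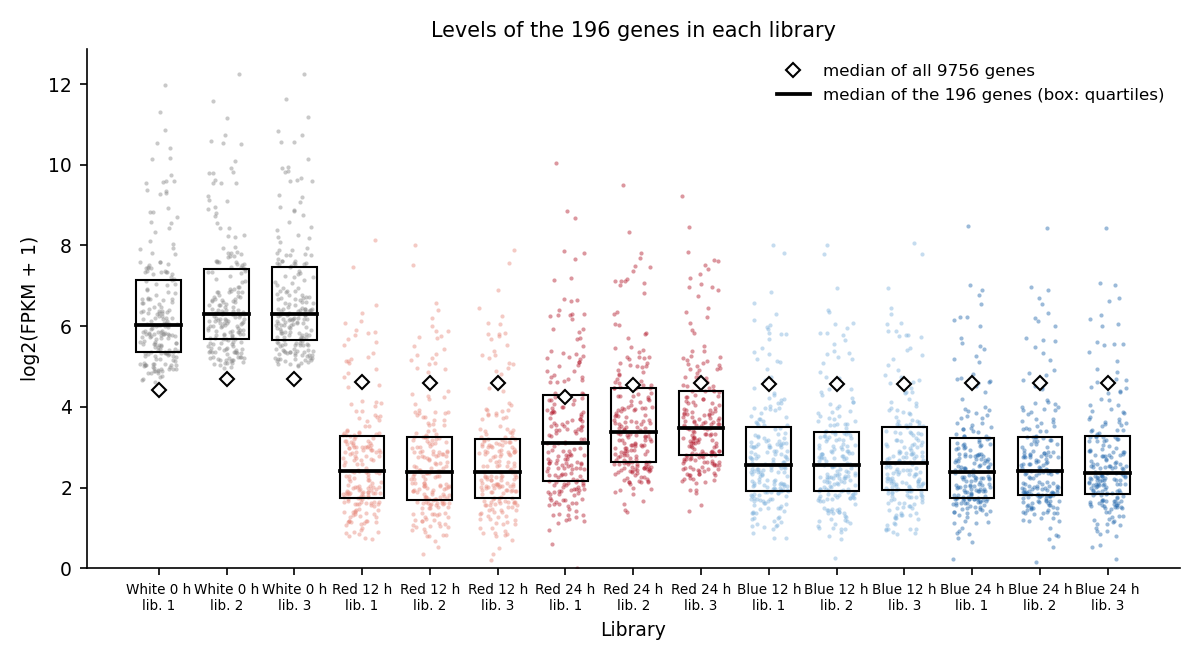
Levels of the 196 genes as log2(FPKM + 1) in each of the 15 libraries, with a point per gene, a box from the lower to the upper quartile, a line at their median and a diamond at the median of all 9756 models. The 3 white libraries lie highest, and the 3 red 24 h libraries lie above those of the other colour groups.

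The low levels rested on few fragments. The median of the 196 genes was 33.5 to 52 fragments in the red 12 h and blue libraries, against 667.5 to 964.5 in white. Between 11 and 29 of the 196 genes had under 10 fragments in a given library of those 3 groups, and the lowest had 1. None was listed at 0 there. In red 24 h libraries 1, 2 and 3 the median was 40.5, 55 and 92.5 fragments. Under 10 fragments were 19, 3 and 0 of the genes, and 1 gene was at 0 in library 1. The most abundant genes, in turn, were far from silent: the 31 with at least 240 FPKM in white had a median of 36.2 FPKM in red 12 h, above the median of all models in any library.

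Near the limits of the rule the values were close. The members with the smallest falls had a least fall of -3.002 and -3.015 on the log2 scale, and the next genes outside had -2.999 and -2.992. The lowest white levels inside were 30.2 and 30.9 FPKM, and the highest outside, among genes with all 3 falls, were 29.4 and 29.2 FPKM. Outside the 2 regions 63 genes missed the white level alone and 42 the fall in blue 24 h alone, while 4 missed the fall in red 12 h alone and 3 that in blue 12 h alone.

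Red 24 h entered no condition of the rule, and there the genes were still low, but less so. Their median was 7.58, 9.33 and 10.2 FPKM in red 24 h libraries 1, 2 and 3, each above every red 12 h and blue library. The median gene stood at 11.4% of its white level, with quartiles of 9.39% and 14.5%, or at 11.8% without library 1. By library that median was 8.65%, 11.7% and 12.1%. The median of all genes was 77.7%, 103% and 103% of white, so it was lower in library 1 as well. Of the 196 genes, 91 were at least 8-fold below white in red 24 h by the same measure, against a background of 3.03% among the 4024 genes with at least 30 FPKM in white. Without library 1 83 were, against 2.68%. All 196 were lower than in white by the limma test (median log2 change -2.98, range -4.38 to -1.41), where 30.1% of the 9601 genes tested were lower. Without library 1 all 196 were lower too, with a median of -2.88, where 29.5% of the genes tested were. White libraries had been used to choose the genes as high, so this direction is partly set by the choice.

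**Figure D2:**
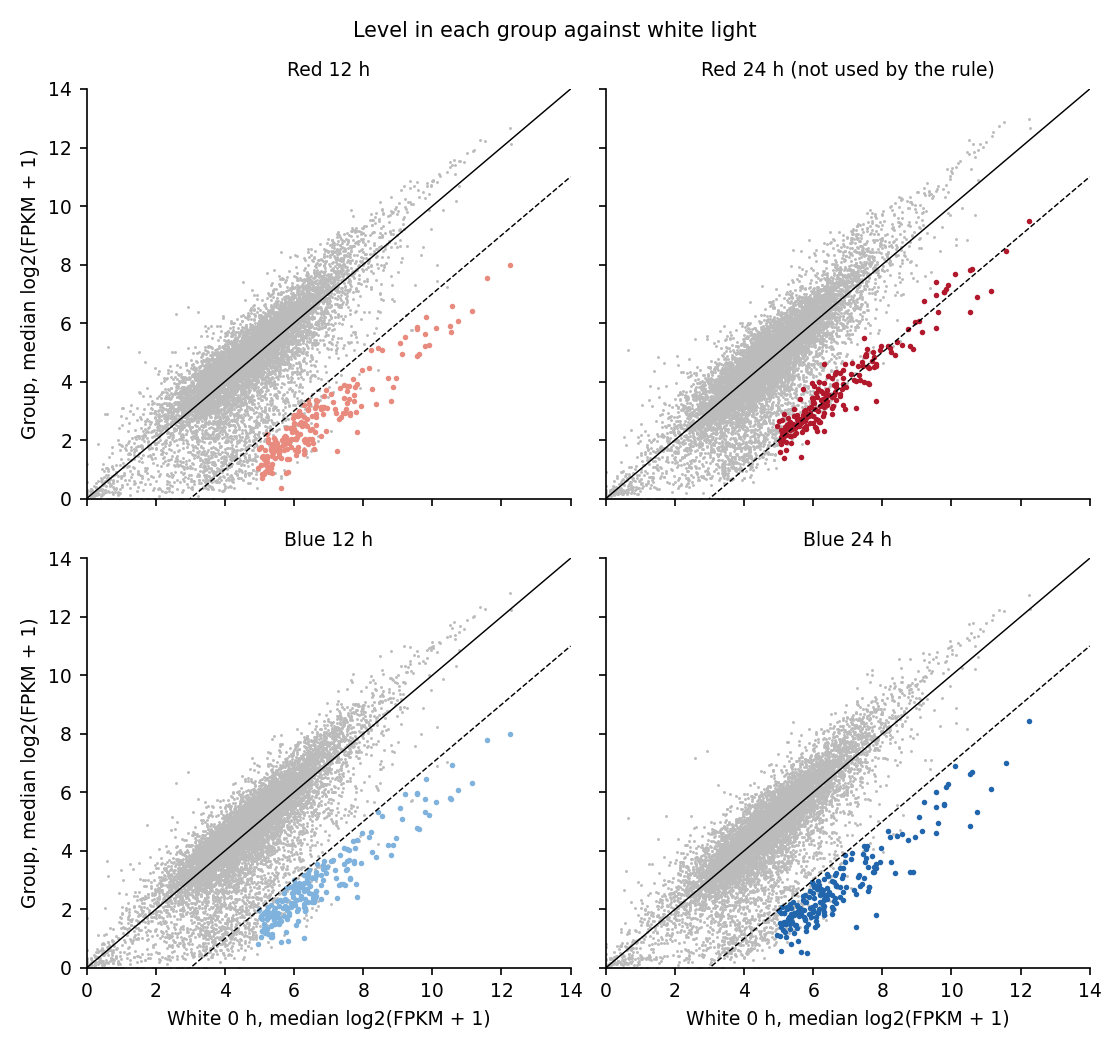
Median log2(FPKM + 1) of each gene in a colour group against white 0 h, for all models (grey) and the 196 genes (coloured), with a solid line of equal levels and a dashed line 3 below it. Only red 24 h was not used by the rule, and there 91 of the 196 lie on or below the dashed line.

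The share of the white level that was left in red 24 h varied little with abundance. The 69 genes with 30 to 60 FPKM in white had a median of 11% left, the 66 genes with 60 to 120 FPKM 12.3%, the 30 genes with 120 to 240 FPKM 11.2% and the 31 genes above that 12.7%. Without library 1 these medians lay between 11.3% and 12.8%. Across the 196 genes the red 24 h change from white correlated with the white level at r = -0.114 (Spearman rho -0.083). The white level is itself a term of that change. With exon length the same change correlated more, at r = -0.312 (rho -0.340), and the part of length was not tested. These are descriptions over genes that share the same libraries. At the ends of the range of shares, 4 genes kept under 5% of their white level and 9 kept at least 20%, or 1 and 9 without library 1.

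The 2 named genes with the largest fall in red 24 h show the pattern at 2 levels of abundance. Both were picked for this fall, and white libraries had been used to choose the genes as high. Their p-values against white are therefore not independent of the choice. The gene scaffold00096.g3746 (847689 to 852063 on the minus strand, 2 exons; IMET v2 models) had 1156, 1470 and 1524 FPKM in white. In red light it had 59.0, 58.2 and 64.9 FPKM at 12 h and 38.5, 81.2 and 87.1 FPKM at 24 h. In blue light it had 54.6, 55.6 and 54.0 FPKM at 12 h and 27.0, 27.6 and 28 FPKM at 24 h. No colour library reached the white range, and the blue 24 h libraries were the lowest. Its log2 change in red 24 h against white was -4.38 ± 0.22 (SE; limma adjusted p = 9.84e-10), a 20.1-fold lower mean, and without library 1 it was -4.01, or 16.4-fold. From red 12 h to red 24 h the difference was 0.10 ± 0.22 (adjusted p = 0.753), with library 1 below and libraries 2 and 3 above the red 12 h libraries. Without library 1 it was 0.47 (adjusted p = 0.00128).

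The gene scaffold00043.g1553 (14516 to 19694 on the plus strand, 9 exons) held 185, 225 and 236 FPKM in white. In red light it held 3.53, 3.89 and 4.2 FPKM at 12 h and 8.71, 9.19 and 13.4 FPKM at 24 h. In blue light it held 3.65, 4.34 and 4.35 FPKM at 12 h and 2.50, 2.23 and 2.55 FPKM at 24 h. Every red 24 h library was above every red 12 h and blue library, and far below white. The log2 change in red 24 h was -4.26 ± 0.16 against white (SE; limma adjusted p = 1.29e-10) and -4.15 without library 1, in a gene picked for this fall. From red 12 h to red 24 h it rose by 1.21 ± 0.16 (adjusted p = 0.000146), or 1.32 without library 1.

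The first question that red 24 h allows is whether the genes rose again between 12 h and 24 h of red light. They did in most cases: 145 of 196 were higher at 24 h by the limma test, where 12.8% of all tested genes were, and 2 were lower, where 15.8% were. The median log2 change of the 196 genes was 0.91, and that of all tested genes was -0.08. In 142 genes all 3 red 24 h libraries lay above all red 12 h libraries, against 18.3% of all tested genes. With libraries 2 and 3 alone against the red 12 h libraries this was so in 185 genes, against 30.4%. Red 12 h had been used to choose the genes as low, which favours a rise from it. Without red 24 h library 1 177 genes were higher, where 17.2% of all tested genes were. A fit of only the 6 libraries compared called 58, where it called 1.59% of all.

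The rise was seen in each red 24 h library. Against the red 12 h medians, the median difference of the 196 genes was 0.75 in library 1, 0.99 in library 2 and 1.04 in library 3 on the log2 scale. The same medians over all tested genes were -0.29, 0.02 and 0.01. Above red 12 h were 153 of the 196 genes in library 1, 191 in library 2 and 193 in library 3. By group medians 191 of the 196 genes were above red 12 h, against 48.5% of all tested genes, and 94 by at least 1 on the log2 scale, against 2.97%. Without library 1 these were 192 genes, against 51.0%, and 102 genes, against 3.12%. Library 1 thus differed from the others by a lower median over all tested genes and by a wider spread among the 196. Its quartiles among them were 0.07 and 1.22, against 0.73 and 1.41 in library 3.

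Gene length moved with the size of the rise. Among the 65 shortest of the 196 genes (350 to 1425 nt of exon) the median difference from red 12 h was 1.13, 1.26 and 1.26 in red 24 h libraries 1, 2 and 3. Among the 65 longest (2370 to 7876 nt) it was 0.29, 0.71 and 0.85. Over all tested genes the corresponding medians were 0.11, 0.13 and 0.04 for short models and -0.62, -0.17 and -0.04 for long ones, so short models read higher in red 24 h throughout, most of all in library 1. The part of length in the result was not tested.

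The 2 named genes that rose most from red 12 h to red 24 h are short and were highest in library 1. Both were picked for this rise, and red 12 h had been used to choose the genes as low. The p-values of their rise are therefore not independent of the choice. The gene scaffold00043.g1762 (666093 to 667533 on the plus strand, 3 exons with 1010 nt) had 149, 176 and 178 FPKM in white. In red light it had 6.97, 6.53 and 4.51 FPKM at 12 h and 75.1, 43.4 and 36.4 FPKM at 24 h. In blue light it had 6.07, 8.24 and 5.44 FPKM at 12 h and 21.9, 16.9 and 15.5 FPKM at 24 h. It was therefore higher at 24 h in both colours, with no overlap between the hours in either and with all red 24 h libraries above all blue ones. The red rise was 2.86 ± 0.24 (SE; limma adjusted p = 2.2e-06), an 8.59-fold higher mean. Without library 1 it was 2.56, or 6.64-fold.

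The gene scaffold00007.g306 (848161 to 848535 on the minus strand, 1 exon of 375 nt) had 79.1, 77.7 and 68.2 FPKM in white. In red light it had 1.2, 3.61 and 1.87 FPKM at 12 h, from 2, 4 and 2 fragments, and 83.5, 14.3 and 13.7 FPKM at 24 h, from 60, 11 and 17 fragments. In blue light it had 1.05, 1.59 and 0.925 FPKM at 12 h and 3.93, 4.97 and 2.15 FPKM at 24 h. The recovered fragments were checked only in models with at least 500 nt of effective length, so the counts given for this shorter model are unchecked. Red 24 h library 1 alone was at the white level, and no other of the 196 genes exceeded its white median in that library. The red rise was 3.12 ± 0.50 (SE; limma adjusted p = 0.000737), a 16.7-fold higher mean. Without library 1 it was 2.29 (adjusted p = 3.48e-07), or 6.29-fold. With all 3 libraries it no longer passed in a fit of the 6 libraries compared (adjusted p = 0.0764).

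**Figure D3:**
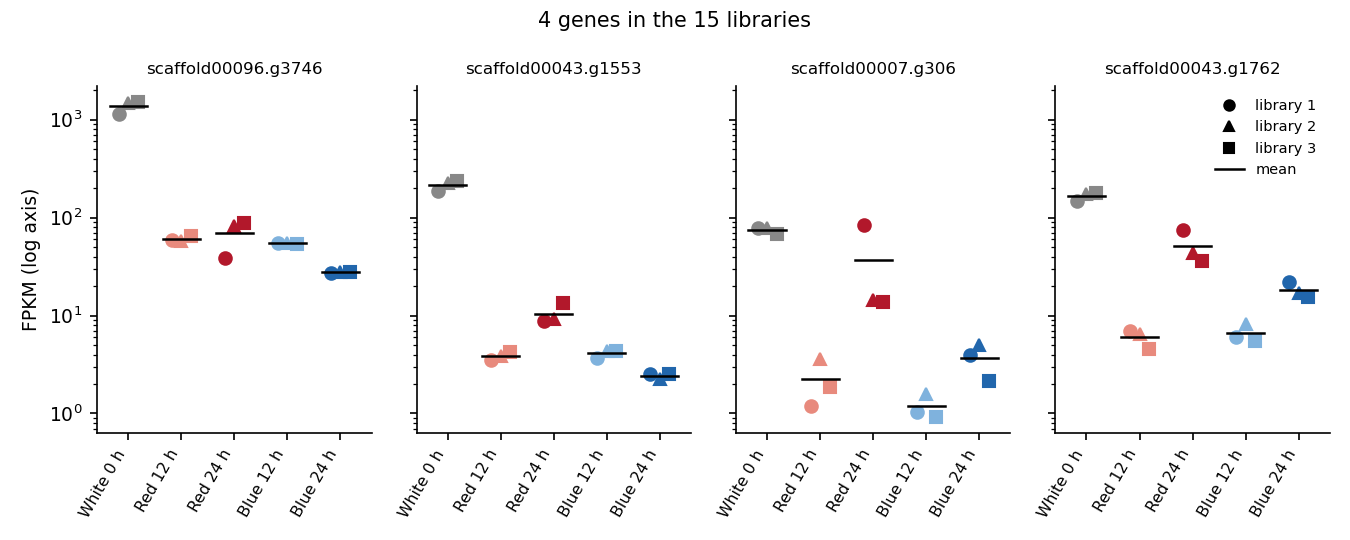
FPKM on a log axis of the 4 named genes in the 15 libraries, with a symbol per library number and a line at the group mean. The red 24 h points lie between the white level and the other colour groups except in the first gene, where library 1 is lower, and in the third gene, where library 1 reaches the white level.

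Only 2 genes were lower in red 24 h than in red 12 h by the limma test, and both are described because of that. The model on scaffold00069 from 687474 to 688674 had 10.5, 7.47 and 8.16 FPKM at 12 h and 1.25, 8.0 and 3.93 FPKM at 24 h. The groups overlapped, and the change of -1.05 (limma adjusted p = 0.0470) did not pass in 16 of 26 alternatives, nor when library 1 of red 24 h was left out (adjusted p = 0.0981). The model on scaffold00080 from 341488 to 345327 had 9.29, 13.5 and 12.2 FPKM at 12 h and 4.07, 7.35 and 8.91 FPKM at 24 h. Its change was -0.75 (adjusted p = 0.0327) and did not pass in 5 of 26 alternatives, one being the removal of that library (adjusted p = 0.0577).

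The second question is whether the colours differed at 24 h. In 138 of the 196 genes blue 24 h was lower than red 24 h by the limma test, where 6.34% of all tested genes were. The median log2 difference was -0.95 over the 196 genes and 0.08 over all tested genes. In 148 genes all blue 24 h libraries lay below all red 24 h libraries, against 13.9% of all tested genes. With red 24 h libraries 2 and 3 alone this was so in 194 genes, against 26.5%. Blue 24 h had been used to choose the genes as low, which favours this direction. Without red 24 h library 1 179 genes were lower in blue, where 11.0% of all tested genes were. A fit of only the 6 libraries called 22, where it called 0.365% of all. Higher in blue was 1 of the 196, where 5.67% of all tested genes were, and 1 had all blue 24 h libraries above all red 24 h libraries, against 17.6%. It was the model on scaffold00080 above, with 12.2, 14.8 and 13.6 FPKM in blue 24 h, higher than each red 24 h library (log2 difference 0.95, limma adjusted p = 0.0209). Without library 1 that difference was 0.67 (adjusted p = 0.012).

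At 12 h both colours had been used by the rule, and their levels are given without a test. Blue stood slightly higher, with a median log2 difference of 0.15 over the 196 genes and -0.01 over all tested genes. None of the 196 differed between the colours by 1 or more on the log2 scale at 12 h, where 0.792% of all tested genes did, so the count is near the background. At 24 h 89 were lower in blue by at least that much, against 1.69% of all tested genes, or 101 without red 24 h library 1, against 1.85%.

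The third question is whether the change from 12 h to 24 h differed between the colours. In blue light the median difference between the hours was -0.15 over the 196 genes, and 71 were higher at 24 h. In red light, by the same group medians, it was 0.98 and 191 were higher. The test of the difference itself, the interaction of light and time, called 88 of the 196 genes with a higher change in red, where 1.54% of all tested genes were called. These 88 made up 59.5% of the 148 genes called in that direction, and 1 of the 196 was called in the other, the model on scaffold00080 again, where 0.74% of all tested genes were. The median difference between the changes was 1.06 for the 196 genes and -0.10 for all tested genes. Without red 24 h library 1 163 of the 196 genes passed, where 5.05% of all tested genes did. In a fit of only the 12 red and blue libraries 67 passed, where 1.28% of all did. Low levels in red 12 h and blue 24 h, which the rule required, favour this direction, and a low level in blue 12 h opposes it.

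For scaffold00043.g1553 the change in red exceeded that in blue by 1.79 ± 0.22 (SE; limma adjusted p = 0.000878), or 1.89 without red 24 h library 1, and passed in all 26 alternatives. For scaffold00043.g1762 it did so by 1.52 ± 0.34 (adjusted p = 0.0268), or 1.22 without that library (adjusted p = 0.00122). For the model on scaffold00080 it was -1.53 ± 0.34 (adjusted p = 0.028), or -1.25 without that library (adjusted p = 0.00185). These last calls passed in 18 of 26 alternatives each, with adjusted p up to 0.0864 and 0.0892. For scaffold00007.g306 (2.06 ± 0.71, adjusted p = 0.174) and scaffold00096.g3746 (1.06 ± 0.31, adjusted p = 0.107) the difference did not pass with all libraries. Without red 24 h library 1 it passed in both, at 1.22 (adjusted p = 0.0254) and 1.43 (adjusted p = 1.77e-07).

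In all, 122 of the 196 genes were both higher in red 24 h than in red 12 h and lower in blue 24 h than in red 24 h, 85 of them with the interaction, and 35 were neither. Of all tested genes 3.54%, 1.31% and 84.4% were so called. Without library 1 the 3 counts were 165, 149 and 5, against 5.48%, 3.1% and 77.2% of all tested genes. These tests share the red 24 h libraries, so their calls are not independent of each other. The rule required low levels in red 12 h and blue 24 h, which favours both directions.

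**Figure D4:**
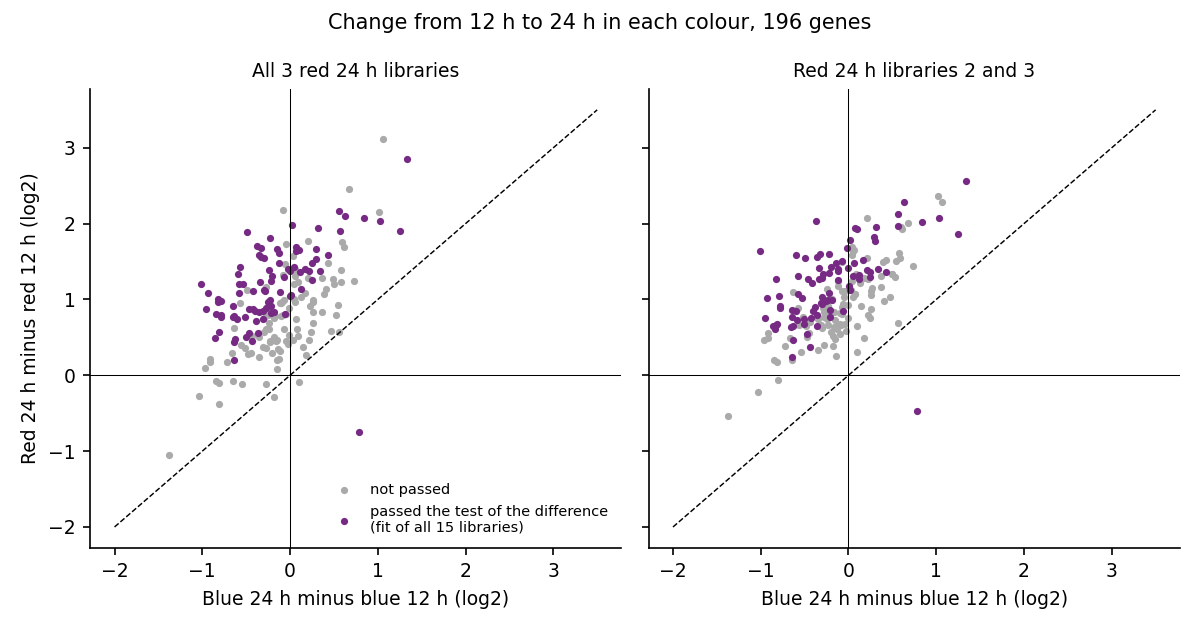
Change from 12 h to 24 h in red light against that in blue light, as differences of mean log2(FPKM + 1), for the 196 genes, with all red 24 h libraries (left) and with libraries 2 and 3 (right); purple marks genes that passed the test of the difference. Nearly all points lie above the dashed line of equal change, and 1 purple point lies below it.

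Genes with similar histories were set beside the 196 as a description. The 23 genes of the 2 left-out regions had a median of 77.0 FPKM in white. Their median was 2.07 FPKM after 12 h and 7.84 FPKM after 24 h of red light, and their median difference between red 24 h and red 12 h was 1.65. The 63 genes with equal falls from a white level under 30 FPKM had medians of 0.803 FPKM in red 12 h and 1.96 FPKM in red 24 h. At such low levels the 1 added to FPKM shrinks a log2 difference, and the median difference of these 63 genes was 0.70. The 253 genes with at least 30 FPKM in white and all 3 falls between 1 and 3 on the log2 scale had 0.32, and 189 of them were higher in red 24 h. The 2698 genes within 1 of white in the same 3 groups had 0.04. In red 24 h library 1 alone these 4 median differences were 1.49, 0.49, -0.01 and -0.20, and in library 3 alone 1.65, 0.81, 0.45 and 0.05. In blue light the medians between the hours were 0.06, -0.04, 0.23 and 0.02 in these sets.

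The most abundant of the genes lie partly side by side. Of the 10 highest in white light, 6 form 3 pairs of neighbouring models. On scaffold00140 the model from 855415 to 857702 stood at 4586 ± 474 FPKM (SD, n = 3) in white light. After 12 h and 24 h it stood at 257 ± 21.1 and 793 ± 236 FPKM in red light and at 259 ± 5.83 and 349 ± 6.23 FPKM in blue light. Its neighbour from 848952 to 854570 had 2156 ± 270 FPKM in white and 126 ± 61.7 in red 24 h. Library 1 was the highest of the red 24 h libraries in the first model and the lowest in the second, and without it their means were 661 and 159 FPKM. On scaffold00096 the model from 853738 to 856630 had 1591 ± 190 FPKM in white and 115 ± 15.4 in red 24 h, beside scaffold00096.g3746. Both models of this pair were lower in blue 24 h than in blue 12 h in every library.

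On scaffold00245 the models from 70926 to 73306 and from 73356 to 77169, on the same strand, had 1374 ± 217 and 895 ± 120 FPKM in white. They had 51.0 ± 1.40 and 36.9 ± 0.920 FPKM in red 12 h and 218 ± 17.7 and 155 ± 8.72 FPKM in red 24 h. In blue light they went from 54.0 ± 1.49 and 37.0 ± 1.91 FPKM at 12 h to 97.5 ± 5.37 and 76.4 ± 2.22 FPKM at 24 h. So both members of this pair, unlike those on scaffold00096, were higher at 24 h in both colours.

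The other 4 of the 10 were a model on scaffold00127 (915300 to 917694), which had 2917 ± 342 FPKM in white and 362 ± 45.5 in red 24 h, and a model on scaffold00336 (1 to 439), which had 1619 ± 181 and 288 ± 149, or 203 without library 1. A model on scaffold00214 (560108 to 562545) had 1025 ± 148 FPKM in white and 208 ± 13.5 in red 24 h, and a model on scaffold00026 (312659 to 314716) had 886 ± 108 and 142 ± 2.38. In each of these 4 the red 24 h mean was above the means of both blue groups and of red 12 h.

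Along the genome the 196 genes were spread over 50 of the 284 scaffolds. The most were 14 on scaffold00007, which carries 310 models, and 16 scaffolds held 1 each. Next to another of the 196 lay 45 of them (23%), compared with 3.67% of all models, in 14 pairs, 2 runs of 3, 1 run of 4 and 1 run of 7. Of the 27 neighbouring pairs 11 were head to head, 7 tail to tail and 9 on the same strand, while these arrangements made up 33.9%, 33.7% and 32.4% of all 9472 neighbouring pairs. Neighbours are those next to each other among the deposited models. At the very first or last model of a scaffold lay 17 of the genes (8.67%), against 4.96% of all models. On scaffold00012, scaffold00172 and scaffold00311 the gene is the only model, so it is outermost in any case. The 2 left-out regions each reach the last model of their scaffold, and their models are counted only among all models.

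The run of 7 spans 14871 to 41940 on scaffold00259, with models on both strands and white levels from 36.1 to 331 FPKM. The gaps between its models range from 149 to 8215 nt. Its median model had 196 FPKM in white. At 12 h and 24 h the medians were 8.48 and 21.4 FPKM in red light and 11.7 and 5.76 FPKM in blue light. The model before the run and the model after it were within 1 of white on the log2 scale in every colour group. The run of 4 spans 843010 to 850991 on scaffold00007 and includes scaffold00007.g306; its median model had 49.9 FPKM in white, then 1.29 and 5.95 FPKM after 12 h and 24 h of red light.

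The runs of 3 lie on scaffold00043 (3796 to 19694), including scaffold00043.g1553, and on scaffold00140 (848952 to 864350), including the most abundant pair. Around the first, 4 of 6 flanking models were also lower by at least 1 in all colour groups, among them the model from 21596 to 22640, which is itself one of the 196. Around the second 2 of 6 were. The same held for 2 of 6 models around the run of 7 and 1 of 6 around the run of 4. None of the 4 runs reached the first or last model of its scaffold.

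**Figure D5:**
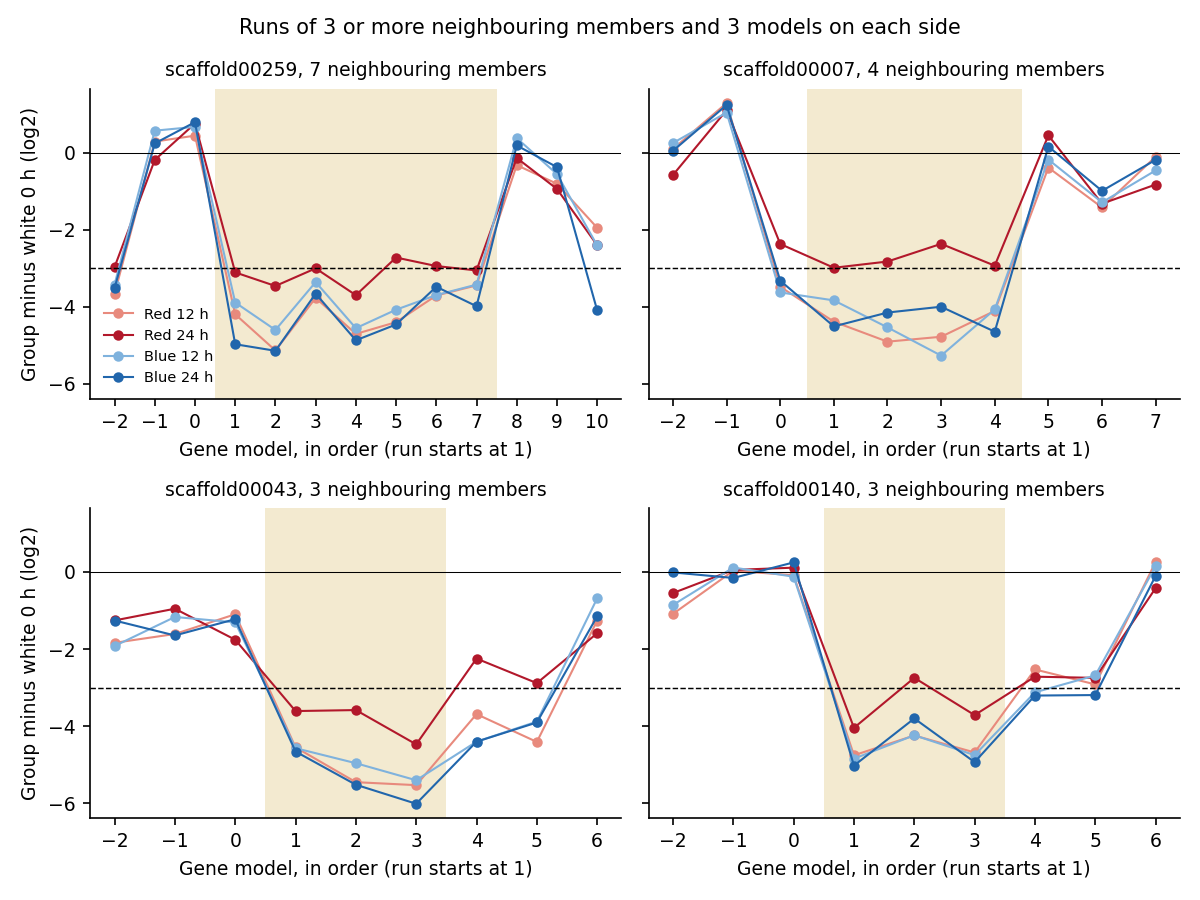
Difference of each colour group from white 0 h in median log2(FPKM + 1), for the 4 runs of at least 3 neighbouring members (shaded) and the 3 models on each side, in order along the scaffold; the dashed line is at -3. Red 24 h lies above the other groups in most models of each run.

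In structure the 196 genes had values near those of the other genes. Their median exon length was 1849 nt (quartiles 1268.5 and 2549.5), against 1725 nt for all models and 1597.5 nt for the 3802 other genes with at least 30 FPKM in white. The median number of exons was 2 for the 196 genes, 2 for all models and 3 for the 3802. Models with a single exon made up 31.1%, 30.8% and 27.3% of these sets, and models with 8 or more exons 8.67%, 7.52% and 7.39%. On the plus strand lay 97 of the 196.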

How the data were processed

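Per the labels' protocols, sequencing libraries were built with a TruSeq kit, starting from 1 µg of Trizol-extracted RNA. The 5 deposited tables, of 3 libraries each, hold FPKM per gene model as the authors computed it. Cufflinks 2.0.4, TopHat and TopHat2 2.0.4 appear in the submitters' processing notes; settings and genome build are not given in the sources used here. Coordinates are those of the deposited IMET v2 models. A column name repeated in the red 12 h table was resolved through the sample names in the same rows.

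limma 3.58.1 in R 4.3.3 was run on log2(FPKM + 1) of all 15 libraries with a mean per group and eBayes with a trend. Genes reaching 1 FPKM in 3 or more libraries entered (9601, among them all 196 described, which also pass without the white libraries). P-values are two-sided and were adjusted by Benjamini-Hochberg over all tested genes, with a threshold of 0.05. The step was tested on simulated data with the same spread per gene in all groups, which does not cover the lower correlation within red 24 h. Fragments were recovered from the FPKM steps: within 0.1, 100% of values standing for at most 30 fragments in models with at least 500 nt of effective length came out whole. They give the depth and enter a voom alternative. Python 3.11.15 and matplotlib 3.10.9 were used for the rest.

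The genes, comparisons and alternatives were chosen with earlier results of these data known. IDs were printed for the 2 genes with the largest fall in red 24 h and the 2 with the largest rise from red 12 h (all with groups that do not overlap, and the rising ones with a mean of at least 10 FPKM in red 24 h); the 10 most abundant genes and runs of at least 3 are described by position.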

Additional observations from a re-analysis of the deposited data

Results flagged for a closer look

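The change from 12 h to 24 h differed between red and blue light in 88 of the 196 genes with a higher change in red (limma interaction of light and time, adjusted over all tested genes), against 1.54% of all tested genes. Low levels in red 12 h and blue 24 h were part of the choice of these genes, which favours this direction. Among the genes named or described singly, the test of that difference passed in scaffold00043.g1553 (1.79 on the log2 scale), in scaffold00043.g1762 (1.52) and, in the opposite direction, in the model on scaffold00080 from 341488 to 345327 (-1.53), described because its direction was seen to be the exception. The calls of the last 2 genes passed in 18 of 26 alternatives each.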

How the results depend on the processing

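Over the 26 alternatives, 195 or 196 genes stayed lower in red 24 h than in white. Leaving out 1 library at a time gave 195 to 196 genes there, 125 to 177 higher in red 24 h than in red 12 h, 111 to 179 lower in blue 24 h than in red 24 h, and 64 to 163 with a higher change in red than in blue. A fit of only the groups compared gave 58 genes for red 24 h against red 12 h and 22 for blue 24 h against red 24 h. There the spread was estimated from fewer libraries, and red 24 h, whose libraries correlated least with their own group, weighed more in it. For the difference in change that fit gave 67 and scaling to the same median 134. Leaving out red 24 h library 1, alone or with white library 1 (chosen after seeing the data), gave 163 and 166. The replicate block gave 196, 146, 142 and 87 genes for the 4 tests in this order. Its check did not settle whether libraries were paired by number. Deviations correlated above 0.1 in 2 of 30 same-numbered pairs of libraries and in 0 of 60 other pairs, and the median of the 30 was 0.004. Both of the 2 pairs joined red 12 h with red 24 h, at r = 0.147 for library 1 and 0.130 for library 3. voom on the recovered fragments, also chosen after seeing the data, gave 133 genes higher in red 24 h than in red 12 h. Equal FPKM sums, taken without the 50 top genes, moved the median of all genes between these groups from -0.08 to -0.25, and 126 of the 196 were then higher.

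The rule itself found 180 to 202 genes without 1 library, 183 at the same median and 216 at the same sum. The genes at least 8-fold lower in red 24 h numbered 66 to 124 without 1 library, and the median difference of the genes found between red 24 h and red 12 h was 0.89 to 1.02. Depth limits the genes with under 10 fragments in a library.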

Other observations

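Of the 196 genes, 5 had a red 24 h median that was not above their red 12 h median, and 4 of the 5 (all but the model on scaffold00080 from 341488 to 345327) also had a lower median in blue 24 h than in blue 12 h. On scaffold00007 the model from 403998 to 405066 had medians of 4.98 and 4.95 FPKM after 12 h and 24 h of red light, and of 5.28 and 2.92 FPKM after 12 h and 24 h of blue. The model from 557211 to 561421 on the same scaffold had 6.09, 5.43, 5.21 and 2.71 FPKM in the same order. On scaffold00308 the model from 26612 to 29751 had 6.41, 5.20, 6.36 and 2.99 FPKM. Across the 196 genes the change from 12 h to 24 h in red light correlated with that in blue light at r = 0.548 (Spearman rho 0.491), a description over genes that were measured in the same 12 libraries.

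At the other end, the model on scaffold00289 from 22304 to 24091 kept the largest share of its white level in red 24 h, 30.2% by group medians. Its red 24 h libraries held 50.1, 23.5 and 15.5 FPKM, against 57.6, 78.0 and 82.3 FPKM in white and 5.34, 8.58 and 7.11 FPKM in blue 24 h. The smallest share, 3.43%, was kept by the model on scaffold00058 from 15276 to 18251, with 1.18, 1.73 and 1.67 FPKM in red 24 h and 40.3, 50.6 and 48.7 FPKM in white.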
